A study of Homo sapiens with 6 samples.

Results

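NEAT1, MALAT1 and the proteins that build paraspeckles were followed in MDA-MB-231 cells, an established human triple-negative breast cancer line, and in their glutamine-independent derivative. The gene set holds 7 of the 28265 gene rows counted. It consists of the long non-coding RNAs NEAT1 and MALAT1 and the protein genes SFPQ, NONO, PSPC1, RBM14 and TARDBP, taken by gene symbol from the count table of each library. Parental MDA-MB-231 cells grew in RPMI 1640 with glutamine and 10% fetal bovine serum. MDA-MB-231GlnIND cells, called GlnIND here, grew in the same medium without glutamine for more than 6 weeks, with 10% dialyzed serum, so that cell population, glutamine supply and serum differed together. The labels do not say whether GlnIND is a clone or a mixed population. Each group had 3 libraries of poly(A)-selected RNA. The question was how transcript levels differ once cells grow without glutamine.

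A paraspeckle is a nuclear body assembled on the long isoform of NEAT1, which acts as its scaffold. SFPQ, NONO and PSPC1 form the DBHS family (Drosophila behaviour, human splicing), whose members dimerise and coat this RNA, and RBM14 joins the core through a prion-like domain. TARDBP encodes TDP-43, an RNA-binding protein that is found in paraspeckles and acts on the choice between the NEAT1 isoforms. NEAT1 is known as a stress-responsive transcript, and MALAT1, transcribed from the neighbouring gene, is held in another nuclear body, the nuclear speckle, which is rich in splicing factors.

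The ends of the 2 RNAs matter for what a poly(A)-selected library can hold. The short NEAT1 isoform ends at an ordinary poly(A) signal and carries a poly(A) tail, whereas long NEAT1 and MALAT1 are cut by RNase P and protected by a triple helix of U-rich motifs and a genome-encoded A-rich tract. The sequences below show these elements in the GENCODE v29 transcripts (GRCh38), on the transcript strand and with T for U. Capitals mark the poly(A) signal in the first, the longest internal run of A in the next, and the U-rich motifs and A-rich tract in the last pair.
NEAT1 short end, NEAT1-202 bases 3666 to 3735: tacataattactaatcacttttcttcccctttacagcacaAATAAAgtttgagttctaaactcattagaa
NEAT1 internal run, NEAT1-202 bases 18026 to 18082: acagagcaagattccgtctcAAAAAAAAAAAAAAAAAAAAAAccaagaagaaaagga
NEAT1 long end, NEAT1-202 bases 22644 to 22743: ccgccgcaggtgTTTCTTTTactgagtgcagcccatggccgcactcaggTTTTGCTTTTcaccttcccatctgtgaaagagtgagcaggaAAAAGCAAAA
MALAT1 end, MALAT1-202 bases 8258 to 8355: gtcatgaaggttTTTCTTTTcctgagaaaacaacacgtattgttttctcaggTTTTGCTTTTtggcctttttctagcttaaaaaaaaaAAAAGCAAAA

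NEAT1 and MALAT1 carried the same 3 motifs in the same order, TTTCTTTT, TTTTGCTTTT and AAAAGCAAAA. Long NEAT1 was annotated with 22743 bases and stopped at the last letter of the tract, while the annotated MALAT1 transcript of 8708 bases ran 353 bases past it. The motifs were read from these transcripts: the last 10 bases of long NEAT1, their reverse complement, and the longest stretch that both RNAs share in the 60 bases before it. Among 206694 GENCODE transcripts, the 3 motifs in this order within 120 bases, searched on the transcript strand, were found in 2, which are these transcripts. Singly, TTTCTTTT stood in the last 120 bases of 1.45% of transcripts, TTTTGCTTTT in 0.113% and AAAAGCAAAA in 0.16%. The internal run of long NEAT1 held 22 A, and 2 other runs held 14 A each. The counts are per gene and do not say from which NEAT1 isoform a read came.

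**Figure D1:**
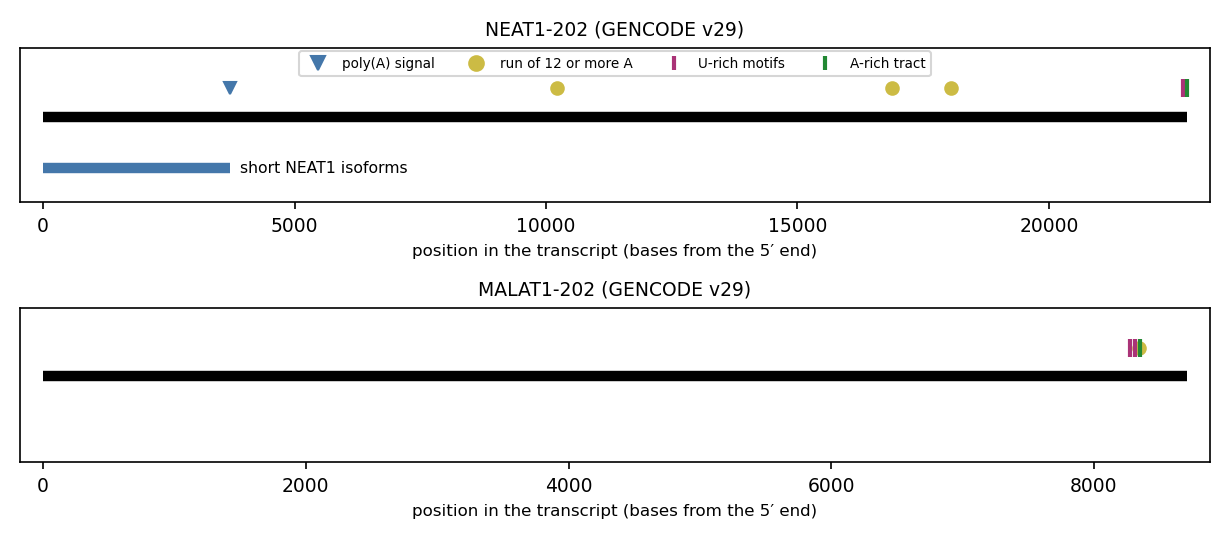
Positions of 3′ end elements in the annotated NEAT1-202 and MALAT1-202 transcripts; the horizontal axes give bases from the 5′ end, the black bars the transcripts and the blue bar the stretch up to the end of the short transcript NEAT1-208 at base 3716. The U-rich motifs and the A-rich tract lie at the far end of both RNAs, and 3 runs of at least 12 A lie between the short and the long end of NEAT1.

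Library totals ranged from 18256219 to 24594248 counts. Levels are CPM, that is counts scaled to a common library size with TMM factors. Expression was compared with edgeR's quasi-likelihood test over 13949 genes, with Benjamini-Hochberg adjustment and a call at an adjusted p under 0.05. Of the tested genes 56.3% were called, with 28.4% up and 27.9% down in GlnIND libraries. Because the 7 genes were chosen with this contrast known, their values are given as a description without a test, while genes outside the set are given with it. Here and below ± is the SD over the 3 libraries of a group (n = 3), and SE belongs to the log2 fold change. Whether libraries of a group are separate cultures is not in the labels, and p-values therefore cover only the spread among these libraries, which may be technical. Parental 1 stood apart from the other parental libraries, with a root mean square log2 difference of 0.468 and 0.492 from them against 0.36 between them, and 0.272 to 0.283 within GlnIND. All 8 mesenchymal-type markers of the line had counts, at a summed 7747 to 8451 CPM in parental and 10540 to 10720 CPM in GlnIND libraries. VIM (means of 3980 and 6080 CPM) and AXL (1230 and 2070 CPM) carried most of that difference, while CD44 (969 and 785 CPM), CAV1 (516 and 366 CPM) and ZEB1 (161 and 102 CPM) were lower in GlnIND libraries. The luminal list summed to 526.3 to 616 and 236.5 to 253.3 CPM, nearly all from KRT8 (means of 266 and 123 CPM) and KRT18 (284 and 104 CPM). EPCAM (14.3 and 2.22 CPM) and FOXA1 (5.82 and 3.22 CPM) were also lower, and GATA3 was at 10.4 and 10.6 CPM. The means of ESR1, PGR and CDH1 were at most 0.219 CPM. The 6 blood cell markers summed to 157.8 to 201.5 and 175.5 to 177.4 CPM, nearly all from CD68 (3036 to 4566 counts), with PTPRC at 0 to 6 counts and CD3E, HBB and HBA1 at 0. The fibroblast markers summed to 5.034 to 7.382 and 17.22 to 19.6 CPM, with LUM at 0 counts in the parental and 40, 54 and 78 in the GlnIND libraries. The part of these differences in the results below was not tested.

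NEAT1 had by far the widest difference of the set, and GlnIND cells were higher. Its level was 96.91, 84.32 and 90.45 CPM in parental libraries 1 to 3, and 575.3, 648.8 and 751.2 CPM in GlnIND libraries 1 to 3. Every GlnIND library lay far above every parental library. The means were 90.56 ± 6.3 and 658.4 ± 88.3 CPM, which differ 7.27-fold, with a log2 fold change of 2.86 (SE 0.105). The gap between the groups exceeded the spread within either group many times over, and the SD was larger among the GlnIND libraries. NEAT1 ranked 264 of 13949 genes by log2 fold change. These are bulk libraries, in which more cells with the transcript and more transcript per cell cannot be told apart.

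Among the tested genes 757 are long non-coding or antisense RNAs in RefSeq, and NEAT1 stood 21 of these by log2 fold change. By counts it stood 11 in parental and 2 in GlnIND cells, a rank that transcript length also moves. It took 1.71%, 1.5% and 1.56% of all counts on such genes in parental libraries 1 to 3. In GlnIND libraries 1 to 3 the share was 8.49%, 9.69% and 10.9%. The counts on long non-coding genes without NEAT1 were also higher in GlnIND libraries, at 6374 to 6499 against 5169 to 5489 CPM without TMM factors. Those factors, 0.928 to 0.959 in parental and 1.049 to 1.06 in GlnIND libraries, would narrow this gap. Of the 757 genes 29.1% were called higher and 14.0% lower, with a median log2 fold change of 0.29.

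MALAT1 showed a smaller difference in the same direction, with overlapping groups. Its level was 50.09, 25.05 and 18.4 CPM in parental libraries 1 to 3. In GlnIND libraries 1 to 3 it was 57.8, 44.15 and 61.76 CPM. Parental 1 lay above GlnIND 2, and parental 2 and 3 lay below all GlnIND libraries. The means were 31.18 ± 16.7 and 54.57 ± 9.23 CPM, with a log2 fold change of 0.80 (SE 0.3). Without parental 1 it was 1.32 (SE 0.102), without parental 2 it was 0.65 and without parental 3 it was 0.51, so its size depended on which parental libraries entered. MALAT1 had the widest parental spread of the set, with 2.72-fold between the highest and the lowest library, against 1.15-fold for NEAT1.

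The MALAT1 value may cover part of the RNA only. In RefSeq, TALAM1, its antisense partner, spans 82.1% of MALAT1. The TALAM1 row held 0 to 2 counts per library, and the strand setting of the counting is not given in the sources used here. If strand was not used, reads from the shared stretch may have been assigned to neither gene. NEAT1 shares 0.44% of its span with a microRNA row, MIR612, which was at 0 in all libraries.

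**Figure D2:**
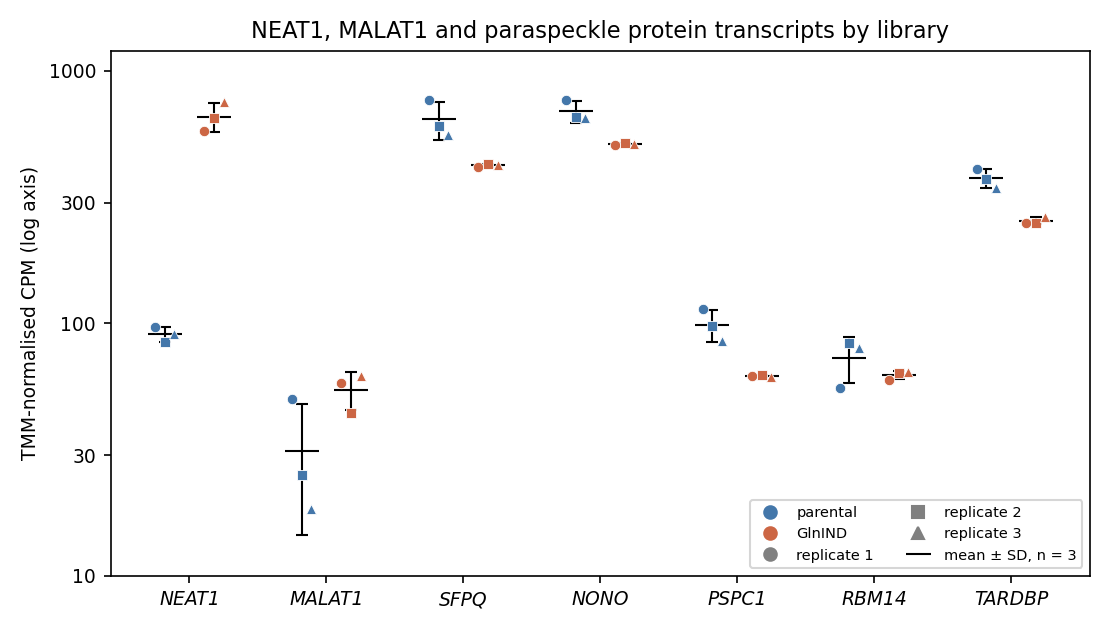
TMM-normalised CPM, on a log axis, of each gene in the 3 parental (blue) and 3 GlnIND (orange) libraries; black bars are mean ± SD, n = 3. NEAT1 separates upward, SFPQ, NONO, PSPC1 and TARDBP separate downward, and MALAT1 and RBM14 overlap.

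The DBHS genes were lower in GlnIND cells. SFPQ, a splicing factor that NEAT1 can hold in paraspeckles, was at 768.9, 603.7 and 554.5 CPM in parental libraries 1 to 3 and at 416.9, 428.1 and 422.2 CPM in GlnIND libraries 1 to 3. The groups did not overlap, and parental 1 was the highest library. The log2 fold change was -0.60 (SE 0.107), from 642.3 ± 112 to 422.4 ± 5.61 CPM.

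NONO, the partner of SFPQ in the most abundant DBHS dimer, was at 768.7, 657 and 647 CPM in parental libraries 1 to 3 and at 510, 515.8 and 513.7 CPM in GlnIND libraries 1 to 3. Again the groups did not overlap and parental 1 was highest. Its log2 fold change was -0.43 (SE 0.075), with means of 690.9 ± 67.6 and 513.2 ± 2.94 CPM.

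PSPC1, paraspeckle component 1, is not required for paraspeckles to form. It was at 113.6, 97.07 and 84.73 CPM in parental libraries 1 to 3 and at 61.57, 62.26 and 61.33 CPM in GlnIND libraries 1 to 3. No GlnIND library reached the lowest parental library. The means were 98.48 ± 14.5 and 61.72 ± 0.48 CPM, with a log2 fold change of -0.67 (SE 0.101).

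In all 3 DBHS genes the GlnIND libraries agreed closely, with a coefficient of variation of 0.573% to 1.33%, against 9.78% to 17.5% in parental cells. Without parental 1 the log2 fold changes were -0.46 for SFPQ, -0.36 for NONO and -0.57 for PSPC1. Within the family the share of NONO was slightly higher in GlnIND cells. It took 46.6%, 48.4% and 50.3% of the DBHS counts in parental libraries 1 to 3 and 51.6%, 51.3% and 51.5% in GlnIND libraries 1 to 3. The ratio of SFPQ to NONO counts averaged 0.925 ± 0.0717 in parental and 0.823 ± 0.00656 in GlnIND libraries.

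The ratio of NEAT1 counts to the mRNA counts of its coat proteins needs no scaling between libraries. Protein was not measured, and the NEAT1 counts do not separate its isoforms. These genes were chosen with the contrast known and differed in opposite directions, so the ratio restates the values above. For every 100 counts of SFPQ, NONO and PSPC1 together there were 5.87, 6.21 and 7.03 NEAT1 counts in parental libraries 1 to 3. In GlnIND libraries 1 to 3 there were 58.2, 64.5 and 75.3. The means, 6.37 ± 0.596 and 66 ± 8.65, differed 10.4-fold. Every GlnIND library lay above every parental library. NEAT1 counts per MALAT1 count were 1.93, 3.37 and 4.92 in parental libraries 1 to 3 and 9.95, 14.7 and 12.2 in GlnIND libraries 1 to 3, which again did not overlap.

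**Figure D3:**
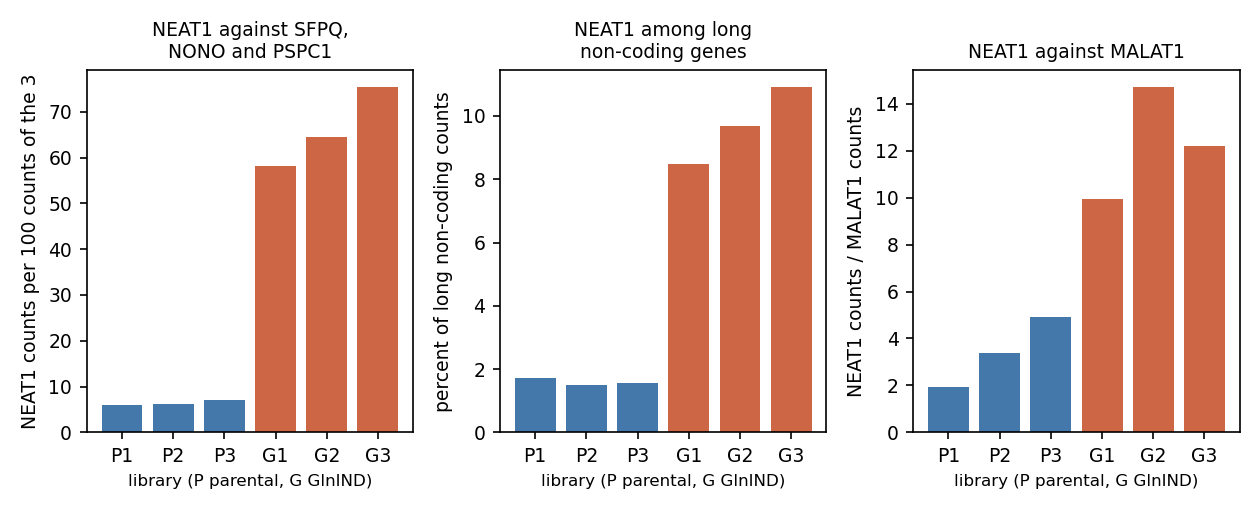
NEAT1 counts in each library per 100 counts of SFPQ, NONO and PSPC1 (left), as a percent of counts on long non-coding and antisense genes (middle) and per MALAT1 count (right); P1 to P3 are parental and G1 to G3 GlnIND libraries. On all 3 vertical axes, which start at 0, the lowest GlnIND bar is above the highest parental bar.

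RBM14 and TARDBP complete the set. RBM14 was at 55.6, 83.29 and 80.05 CPM in parental libraries 1 to 3 and at 59.59, 63.51 and 64.17 CPM in GlnIND libraries 1 to 3. Parental 1 lay below all GlnIND libraries, and parental 2 and 3 above them. The log2 fold change was -0.22 (SE 0.135) with all libraries and -0.40 (SE 0.061) without parental 1. The read-through gene RBM14-RBM4 spans all of RBM14 in RefSeq and held 0 to 2 counts per library, so reads in shared exons may be missing from the RBM14 row.

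TARDBP was at 408.5, 373.8 and 342.7 CPM in parental libraries 1 to 3 and at 249.7, 250.4 and 264.6 CPM in GlnIND libraries 1 to 3. All GlnIND libraries lay below all parental libraries. Its means were 375 ± 32.9 and 254.9 ± 8.38 CPM, with a log2 fold change of -0.56 (SE 0.074). MASP2 shares 22.4% of the TARDBP span in RefSeq and held 12 to 43 counts per library. If strand was not used in counting, reads from the shared stretch may be missing from the TARDBP row.

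All 7 genes passed the filter on low counts. The ranges did not overlap in 5 of them, with GlnIND higher in 1 and lower in 4. Over all tested genes the ranges did not overlap in 65.0%, 33.7% higher and 31.3% lower, and since the set was chosen on this contrast nothing is read from its count.

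Neighbouring genes moved together most clearly around the members on chromosomes 11 and 13. Over all tested genes 28.4% were called higher and 27.9% lower. NEAT1 and MALAT1 follow each other on chromosome 11 with no tested gene between them. Of the 40 tested genes nearest to them, 20 on each side in RefSeq order (GRCh38.p14), 31 were called higher and 2 lower, with a median log2 fold change of 0.80. MALAT1 stood close to this median, with an SE of 0.3 for its own log2 fold change. With 10 or 40 genes on each side it stood 0.08 or 0.19 above the median. NEAT1 stood 2.06 above it and above each of the 40 neighbours, the highest of which, SLC25A45, was at 2.47. Next to NEAT1, FRMD8 stood at 0.96. FRMD8 was picked for its place and SLC25A45 after its value was seen.

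RBM14, further along chromosome 11, went against its surroundings. Of its 40 neighbours 33 were called higher by edgeR, with a median of 0.58, and RBM14 stood 0.80 below that. The lowest of the 40, CLCF1, named after its value was seen, stood at -0.13. PSPC1 lies near the start of the tested genes of chromosome 13, where 13 of 22 neighbours were called lower and 1 higher, with a median of -0.44. It stood 0.24 below its neighbours. TARDBP on chromosome 1 had a neighbour median of -0.20 and stood 0.36 below it. SFPQ, also on chromosome 1, and NONO on chromosome X had neighbour medians of 0.07 and -0.02 and stood 0.68 and 0.41 below them. Their neighbours were mixed. Of 40 each, 12 were called higher and 8 lower for SFPQ, and 11 higher and 12 lower for NONO. What moves neighbouring genes together, and its part in the values of the set, was not tested.

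**Figure D4:**
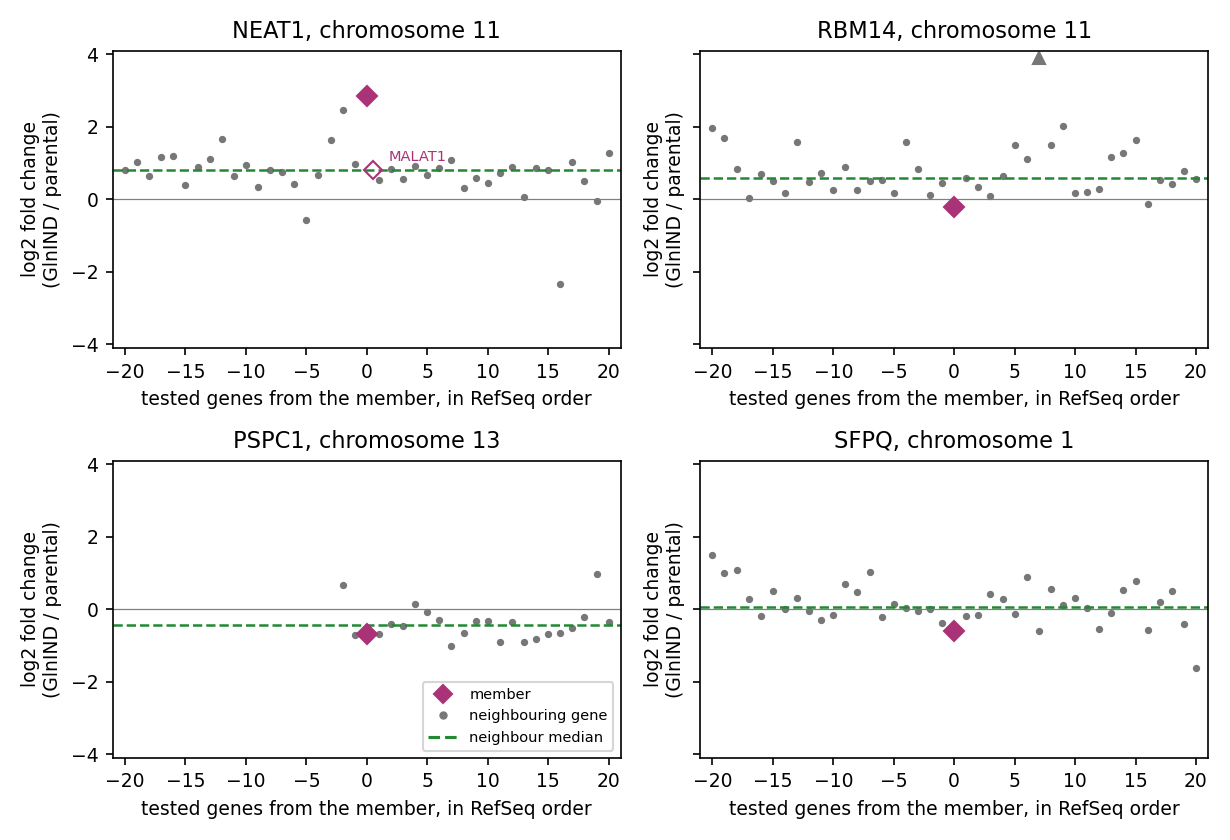
Log2 fold changes (GlnIND over parental, vertical axis) of NEAT1, RBM14, PSPC1 and SFPQ (diamonds) and of up to 20 tested genes on each side (grey) in chromosome order; the dashed line is the neighbours' median and the grey triangle at the upper edge a gene at 8.57. NEAT1 lies 2.06 above its neighbours' median, the open diamond of MALAT1 lies close to it, and RBM14 lies 0.80 below its own.

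Other paraspeckle proteins were mostly lower, as the DBHS genes were. Of 32 listed protein genes outside the set 31 were tested, and 18 fell, 5 rose and 8 were not called. Their median log2 fold change was -0.30, beside 0.03 for all tested genes, of which 27.9% fell and 28.4% rose. With library totals alone 14 fell and 7 rose, beside 2810 and 5356 of all 13949 genes. The list median was then -0.15, while the median of all genes moved to 0.18. Without parental 1, 17 fell and 5 rose, and without GlnIND 1, 15 fell and 3 rose. With each gene's neighbour median subtracted, a run not planned for this list, 24 of the 31 were below 0 and the median was -0.35. The share of all tested genes below their own neighbour median was not computed, so nothing is read from that count.

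Among 5 genes for proteins on which paraspeckle assembly depends, 4 fell (80%, beside 27.9% of all genes). DAZAP1, an RNA-binding protein, fell, at a log2 fold change of -0.81 (edgeR adjusted p = 3.81e-05, SE 0.085), from 213.9 ± 23.7 to 121.7 ± 4.8 CPM. HNRNPK, which favours the long NEAT1 isoform by hindering the poly(A) signal of the short one, fell from 1132 ± 16.8 to 808.8 ± 10.5 CPM (edgeR adjusted p = 6.71e-05). HNRNPH3, an RNA-binding protein, fell by 0.40 on the log2 scale (SE 0.087). SMARCA4, the ATPase of a chromatin-remodelling complex that also serves paraspeckle assembly, was at 294.7 ± 40.8 and 264.8 ± 8.27 CPM (edgeR adjusted p = 0.184). The groups of SMARCA4 overlapped, and those of DAZAP1, HNRNPK and HNRNPH3 did not.

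In the longer list of paraspeckle-localised proteins, 14 of 26 tested genes fell (53.8%, beside 27.9% of all genes) and 5 rose (19.2%, beside 28.4%). RBM7, a component of the nuclear RNA exosome targeting complex, fell, at a log2 fold change of -1.19 (edgeR adjusted p = 7.13e-06, SE 0.094). Its neighbours on chromosome 11 had a median of -0.89. RBMX, an RNA-binding protein with retrotransposed copies that can share its reads, fell by 0.71 (SE 0.072), but its neighbours on chromosome X stood at -0.93. SS18L1, a subunit of a chromatin-remodelling complex, rose by 0.77 (SE 0.104), with a neighbour median of 0.07. RUNX3 had too few counts to be tested.

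The list also holds the cleavage factor that acts at the short NEAT1 poly(A) signal, and its subunit genes split. They are singled out here for that role, with their values seen. CPSF6 fell from 168.8 ± 24.7 to 105.4 ± 4.6 CPM, with a log2 fold change of -0.68 (edgeR adjusted p = 0.000306, SE 0.099). NUDT21 rose from 347.9 ± 25.3 to 491.4 ± 18.3 CPM, with a log2 fold change of 0.50 (edgeR adjusted p = 0.000238, SE 0.07), in a window of neighbours at 0.67. CPSF7, the alternative large subunit, rose from 177.1 ± 5.97 to 263.8 ± 1.81 CPM, at a log2 fold change of 0.57 (edgeR adjusted p = 3.19e-05, SE 0.058). The neighbour medians of CPSF6 and CPSF7 were -0.29 and 0.28. Relative to their neighbours CPSF6 stood at -0.39, NUDT21 at -0.17 and CPSF7 at 0.29, so NUDT21 then lay on the side of CPSF6.

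**Figure D5:**
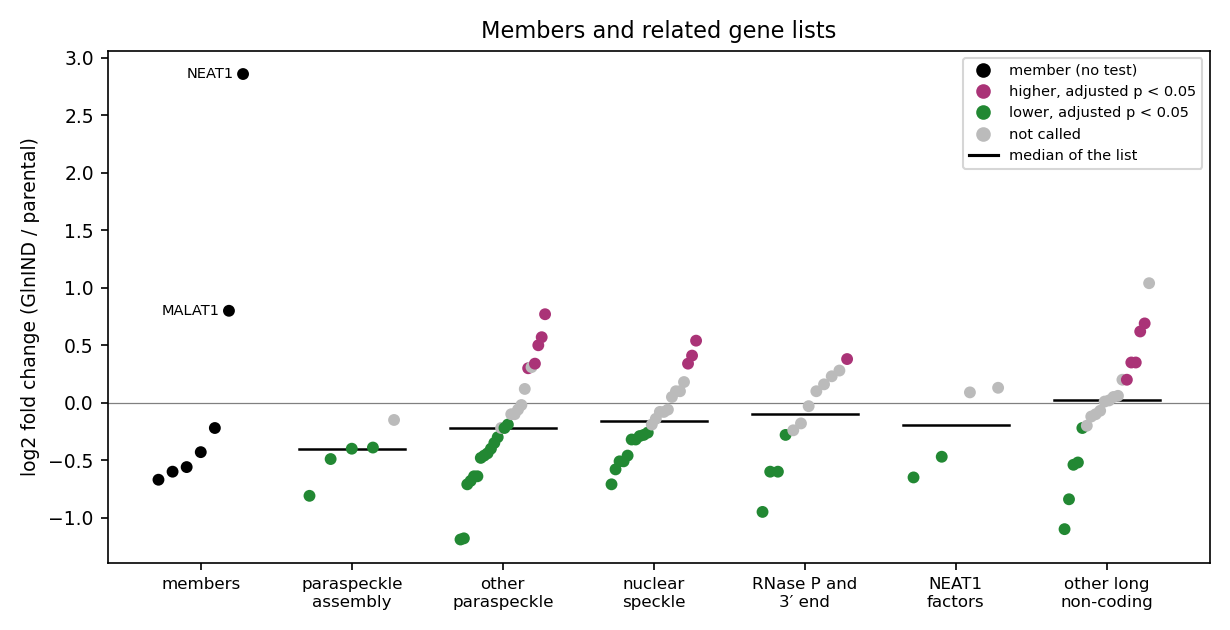
Log2 fold changes (GlnIND over parental, vertical axis) of the 7 genes (black, no test) and of the tested genes of 6 related lists, coloured by the edgeR call; horizontal bars are list medians. NEAT1 and MALAT1 lie above 0 and the protein members below it, and 4 of 5 assembly genes and 14 of 26 other paraspeckle genes are called lower.

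Nuclear speckle proteins, the surroundings of MALAT1, were divided. Among 22 genes with a test, 10 fell (45.5%, beside 27.9% of all genes), 3 rose (13.6%, beside 28.4%) and 9 missed the threshold, and their median log2 fold change was -0.16. SRRM1, a splicing coactivator, fell, at a log2 fold change of -0.71 (edgeR adjusted p = 0.00141, SE 0.134), and DYRK1A, a kinase that phosphorylates splicing factors, fell by 0.58 (SE 0.085). CLK1, a kinase that releases SR proteins from speckles, rose by 0.54 (edgeR adjusted p = 0.00304, SE 0.116). Without parental 1, 11 fell and 6 rose, and without parental 2, parental 3, GlnIND 2 or GlnIND 3 1 rose. With library totals alone 6 fell and 5 rose, beside 2810 and 5356 of all 13949 genes. DDX39B was not tested for low counts.

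The list of proteins that make or bind the ends shown above held fewer rising than falling genes. Among 12 genes with a test, 4 fell (33.3%, beside 27.9% of all genes), 1 rose (8.33%, beside 28.4%) and 7 missed the threshold, and their median was -0.10. POP1, the large protein subunit of RNase P, fell from 44.09 ± 1.15 to 22.76 ± 1.7 CPM (edgeR adjusted p = 1.79e-05), a log2 fold change of -0.95 beside a neighbour median of -0.49. The RNase P subunits POP7 and RPP40 fell, each at a log2 fold change of -0.60 (SE 0.141 and 0.1). With RLE factors, or without parental 1, 6 of the 12 fell and 1 rose. With upper-quartile factors 4 fell and 3 rose, beside 3204 and 4749 of all 13949 genes. With library totals 3 fell and 4 rose, beside 2810 and 5356. RPP21 had too few counts to be tested.

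Of 4 transcription factors known to act on the NEAT1 gene, none was called higher by edgeR, DESeq2 or limma-voom, and 2 were called lower by each. By edgeR that is 0% higher and 50% lower, beside 28.4% and 27.9% of all genes. With 4 genes nothing is read from these shares. ATF2, of the stress-activated kinase pathway, fell, at a log2 fold change of -0.65 (edgeR adjusted p = 0.000343, SE 0.096). EPAS1, the hypoxia factor HIF-2 alpha, was at 24.91 ± 2.99 and 27.21 ± 2.22 CPM, and HSF1, the heat shock factor, at 77 ± 14.5 and 81.68 ± 2.17 CPM (edgeR adjusted p = 0.362 and 0.574). These are transcript levels, and the activity of these factors was not measured.

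Other widely expressed long non-coding RNAs rose and fell in equal number with TMM factors. Among 20 genes with a test, 5 rose (25%, beside 28.4% of all genes), 5 fell (25%, beside 27.9%) and 10 missed the threshold, and their median was 0.02. With library totals 7 rose and 2 fell, beside 5356 and 2810 of all 13949 genes. GAS5, a host of small nucleolar RNAs, fell, at a log2 fold change of -0.84 (edgeR adjusted p = 8.34e-05, SE 0.1), and DANCR, another such host, rose by 0.69 (edgeR adjusted p = 5.11e-05, SE 0.076). FTX, from the X inactivation centre, fell by 1.10 (SE 0.283), from 1.523 ± 0.136 to 0.7096 ± 0.124 CPM. The number that rose was 6 and that fell was 8 without parental 1, 2 rose without GlnIND 1, 3 rose without parental 2, GlnIND 2 or GlnIND 3, and 3 fell without parental 3 or GlnIND 3. With RLE factors, or with DESeq2, 3 rose. HOTAIR, H19 and MEG3 had too few counts to be tested.

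RNAs listed as lacking a poly(A) tail were measured beside NEAT1 and MALAT1, as long NEAT1 and MALAT1 lack an ordinary one. The 6 small structural RNAs listed summed to 15.62, 33.92 and 27.29 CPM in parental libraries 1 to 3 and to 28.07, 23.3 and 27.63 CPM in GlnIND libraries 1 to 3. These groups overlapped, and parental 1, the highest parental library for MALAT1, was the lowest here. RN7SK, the most counted of them, was at 13.26 ± 3.8 and 16.99 ± 3.47 CPM (edgeR adjusted p = 0.173). The 14 listed histone mRNAs summed to 77.17 to 86.14 CPM in parental and 35.04 to 38.37 CPM in GlnIND libraries, with log2 fold changes of -1.59 and -1.34 for H1-2 and H2BC12 (SE 0.133 and 0.101). H1-2 and H2BC12, at parental means of 25.24 and 35.73 CPM, held most of the histone sum. Whether their reads came from transcripts without a tail was not tested. In parental and GlnIND libraries the small RNA sum averaged 25.61 ± 9.26 and 26.34 ± 2.63 CPM. The histone sum averaged 80.9 ± 4.67 and 37.24 ± 1.9 CPM. Carry-over of RNA without a tail, and its part in the NEAT1 and MALAT1 values, was not tested. Over the whole list 14 of 20 genes were tested, 5 fell by edgeR's test (35.7%, beside 27.9% of all genes) and the other 9 missed the threshold.

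The genes whose pattern over the 6 libraries came closest to NEAT1 were LRATD1, DCLK1 and ZDHHC15, among 10591 other genes with a mean of at least 5 CPM. Their centred log2 CPM differed from those of NEAT1 by a root mean square of 0.088, 0.097 and 0.141. Their log2 fold changes were 2.91, 2.88 and 3.04, near that of NEAT1 because closeness over these same libraries picked them. LRATD1 was at 2.512 ± 0.416 and 18.94 ± 3.16 CPM in parental and GlnIND cells. DCLK1 and ZDHHC15 had parental means of 3.397 and 1.255 CPM, so all 3 reached the mean of 5 CPM only through the GlnIND libraries. For MALAT1 the closest were ST6GALNAC5, TNIK and ZNF41, at 0.215, 0.249 and 0.255. No gene came as close to MALAT1 as these 3 NEAT1 neighbours in pattern came to NEAT1.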

How the data were processed

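RNA was sequenced in 6 libraries, 3 per group, from poly(A)-selected RNA made with random-primed first strands, per the labels' protocols. The values are raw counts by gene symbol, which the authors deposited as a table for each library and as a matrix. FastQC, STAR, featureCounts, DESeq and build hg19 are named in the list of tools, per the submitters' processing notes. Versions, annotation and strand setting are not given in the sources used here. The matrix equals the tables at 100% of rows, with the names of replicates 1 and 3 exchanged in each group, and the tables' numbers are used. Counts were tested with edgeR 4.0.16 (R 4.3.3, glmQLFit and glmQLFTest, two-sided, TMM, filterByExpr with a minimum count of 10 and total of 15), design with group alone. The code was also run on simulated counts with few genes changed, balanced up and down, and a common dispersion. That run does not check the scaling or the calls where many genes differ, as here. The 13949 tested genes held 99.94% of counts, and the common biological coefficient of variation was 9.8%. SE was derived from the F statistic. Log2 CPM used a prior count of 2. A permutation of 3 against 3 cannot give p under 0.1. Neighbours followed the RefSeq order of 13493 tested genes, and of 28265 rows 26944 matched a RefSeq symbol. Histone genes listed under older symbols were matched to their current ones.

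Members and lists were chosen with earlier results of these data known. Genes were named by a rule: the members, all assembly and NEAT1 transcription factor genes, the 3 called genes of each list with the largest change at a mean of at least 5 CPM (1 for long non-coding RNAs), and the 3 genes closest in pattern to NEAT1 and to MALAT1. Some genes that the rule names are not reported here. Alternatives were RLE and upper-quartile factors, library totals, no filter, a CPM of at least 1 in 3 libraries, DESeq2 1.42.0, limma-voom (limma 3.58.1), each library left out, the replicate number as a block, other neighbour windows and subtraction of the neighbour median.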

Additional observations from a re-analysis of the deposited data

How the results depend on the processing

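All 7 log2 fold changes kept their direction under every alternative run, except MALAT1 with its neighbours' median subtracted, where it was -0.00088. With that subtraction NEAT1 was 2.06, PSPC1 -0.24, RBM14 -0.80 and TARDBP -0.36, by construction of the subtraction. With library totals NEAT1 was 3.02, NONO -0.27, PSPC1 -0.52 and TARDBP -0.40. RBM14 was -0.07 (SE 0.145) with library totals and -0.13 (SE 0.14) with upper-quartile factors, in both cases smaller than its SE. With 40 genes on each side the neighbour medians were 0.61 for NEAT1 and MALAT1, 0.004 for SFPQ, 0.02 for NONO (-0.02 with 20) and -0.26 for TARDBP, and with 10 it was -0.37 for PSPC1; the cause was not tested. Leaving out 1 library gave 2.75 to 2.94 for NEAT1, 0.51 to 1.32 for MALAT1, -0.72 to -0.46 for SFPQ and 6 to 14 called genes among the other long non-coding RNAs. Called genes of all numbered 6516 to 9280, and called paraspeckle genes 18 to 22. Calls were split 3965 higher and 3888 lower, 4749 and 3204 with upper-quartile factors and 5356 and 2810 with library totals. No pairing by replicate number was seen: deviations of same-numbered libraries correlated at -0.06, 0.03 and -0.04. A small effect shared by same-numbered libraries could be missed this way. With the replicate block MALAT1 was 0.91, 21 paraspeckle genes were called and 3 other long non-coding RNAs rose. The lowest count of a member in a library was 354, for MALAT1 in parental 3.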
